A study of Mus musculus with 8 samples.

Results

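A pair of mouse samples with distinct paternal deletions of the Snrpn promoter was compared for RNA from both strands of the Ube3a domain. Each is a single array of total RNA, taken at postnatal day 0 from cerebral cortex on the C57BL/6 background. Both samples also lack, on the maternal chromosome, everything between Snrpn and Ube3a (del s-u), so the Snrpn-to-Ube3a RNA in them can come only from the paternal chromosome with its promoter deletion. They were chosen by their titles, del s-u/0.9 for one and del s-u/4.8 for the other, and judged against the difference between the 2 wild-type samples, WT1 and WT2, of the same strain, tissue and age. These are 4 of the series' 8 samples. The remaining 4 (single maternal and paternal deletions, and polyA RNA of the wild types) were not used.

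The labels contradict each other on which allele each sample carries. The sample titled del s-u/0.9 has del s-u/4.8 as its genotype label, and the sample titled del s-u/4.8 has del s-u/0.9. Samples are therefore named by their titles throughout, as "titled 0.9" and "titled 4.8", and no value is assigned to either promoter deletion. The sources used here do not give the borders of the deletions, nor how many animals stand behind a sample. Each double deletion has 1 sample, so the spread in every test came from the wild-type pair alone and each lone sample was assumed to vary like the wild types. The wild types are wild type on both chromosomes, so each difference from them also holds the maternal deletion, which both double deletions share.

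Ube3a encodes an E3 ubiquitin ligase. In neurons it is expressed mainly from the maternal chromosome. On the paternal chromosome a long minus-strand transcript begins at and upstream of Snrpn, a gene for a small nuclear ribonucleoprotein subunit, runs through clusters of small nucleolar RNAs, and ends as Ube3a-ATS, the antisense RNA opposite Ube3a. The study's design text describes both double deletions as depleted of Ube3a-ATS, and the comparison asks whether the 2 samples were depleted alike.

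The array files name no gene or exon and no annotation of their genome build (mm9, NCBI build 37) was used here, so stretches are given by position, and the names Ube3a and Snrpn follow the study's description and the known order of the domain. The tile ran from 65890585 to 67700765 of chromosome 7, 1810.181 kb. From Ube3a toward Snrpn, the regions were the Ube3a 5′ part (66484001 to 66526000), the Ube3a 3′ part (66527001 to 66566000), stretch 1 (66570001 to 66600000), stretch 2 (66600001 to 66870000), stretch 3 (66870001 to 66930000), stretch 4 (66930001 to 67060000), stretch 5 (67060001 to 67120000) and stretch 6 (67120001 to 67147000). On either side of them lay a lower flank (65890585 to 66383000), a transition (66383001 to 66483000) and an upper flank (67148001 to 67700765). A level is the mean log2 red intensity of a region's probes after background correction, relative to the array's 75th percentile of probes outside the tile. A level of 0 is therefore that percentile, and negative levels are common.

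RefSeq (build GRCm38.p6) lists 4 promoter windows for Snrpn, all on the minus strand of chromosome 7, and the sequences are shown because the compared samples differ by deletions at the Snrpn promoter. Each window covers 300 bases. Start 1, nearest the gene body and shared with Snurf, which encodes the small upstream protein of the same transcript, is at chr7:60005150-60005449. Start 2 (chr7:60047929-60048228) lies 42.8 kb, start 3 (chr7:60140176-60140475) 135.0 kb and start 4 (chr7:60450128-60450427) 445.0 kb upstream of it. The window of start 4 is shared with Snhg14, the host gene of the long antisense transcript. The 8 bases in capitals, CGCATGCG, read the same on both strands. This motif was picked after the sequences were seen, occurs 1 time in each of the 4 windows, and is in 1.86% of the 32817 promoter windows of the same length. Starts 1, 2 and 4 read, from 5′ to 3′:

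start 1: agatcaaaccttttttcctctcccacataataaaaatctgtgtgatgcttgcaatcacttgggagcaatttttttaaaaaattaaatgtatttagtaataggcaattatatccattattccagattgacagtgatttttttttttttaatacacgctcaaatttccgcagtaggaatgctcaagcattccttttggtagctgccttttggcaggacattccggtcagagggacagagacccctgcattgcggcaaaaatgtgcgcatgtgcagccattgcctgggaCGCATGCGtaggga

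start 2: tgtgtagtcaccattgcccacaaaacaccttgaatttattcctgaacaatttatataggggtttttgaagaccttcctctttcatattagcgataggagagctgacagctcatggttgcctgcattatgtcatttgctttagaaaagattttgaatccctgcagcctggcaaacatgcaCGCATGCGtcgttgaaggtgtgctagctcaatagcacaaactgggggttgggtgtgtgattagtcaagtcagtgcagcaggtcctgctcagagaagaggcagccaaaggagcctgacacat

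start 4: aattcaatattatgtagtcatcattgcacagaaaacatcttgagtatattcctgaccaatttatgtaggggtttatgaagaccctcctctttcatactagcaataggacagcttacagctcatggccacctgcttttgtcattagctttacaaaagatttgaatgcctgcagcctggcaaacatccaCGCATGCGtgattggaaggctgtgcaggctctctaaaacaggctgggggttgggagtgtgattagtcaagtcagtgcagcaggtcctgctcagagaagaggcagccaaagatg

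The 3 upstream windows resemble each other and start 1 stands apart. Global alignments between the upstream windows gave 79.7% to 81.4% identical positions, and those of start 1 with each of them 50.4% to 53.0%. These coordinates are of another build than the array's. The sources used here do not say which of these starts the 2 promoter deletions remove, and nothing about the factors that bind them was measured.

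The arrays were alike in quality. Median red intensity was 132 in titled 0.9, 153 in titled 4.8, 134.5 in WT1 and 125 in WT2, over a median local background of 37 to 38. Of the spots, 81.08% to 86.58% were well above background and at most 0.6111% were saturated. Probes printed in several places on an array agreed to a median SD of 0.078 to 0.093 log2 over 1051 probes. Because the files name no genes, cortical cell type markers could not be read.

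Minus-strand RNA from Snrpn to Ube3a was low in both double deletions and lower in titled 0.9 than in titled 4.8, except that on a scale of all probes the order of the pair turned opposite Ube3a and in stretch 1. In bulk tissue, fewer cells that express the RNA and less RNA per cell cannot be told apart. The gap was wide over stretch 2, a 270-kb block of strong wild-type signal. There the level was 2.06 in titled 0.9, 4.25 in titled 4.8, 5.54 in WT1 and 5.34 in WT2. Titled 4.8 thus lay between titled 0.9 and the wild types, and its distance from either was larger than the difference between the wild types. The difference of titled 0.9 from titled 4.8 was -2.18 log2, a 4.55-fold lower level, against 0.20 between WT1 and WT2, and was called. WT1 and WT2 differed more here than in any other region, yet the standard error of 0.0764 was 1 value pooled over all regions. Of the 2513 probes of this stretch, 97.81% were lower in titled 0.9 and 86.55% at least 2-fold lower, where no probe differed 2-fold between the wild types. This was the largest difference of any region, but not with background subtraction (-2.39, against -2.44 in stretch 6) or in the authors' deposited matrix (-1.42, against -1.88 in stretch 6, -1.75 in stretch 4 and -1.72 in stretch 5).

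**Figure D1:**
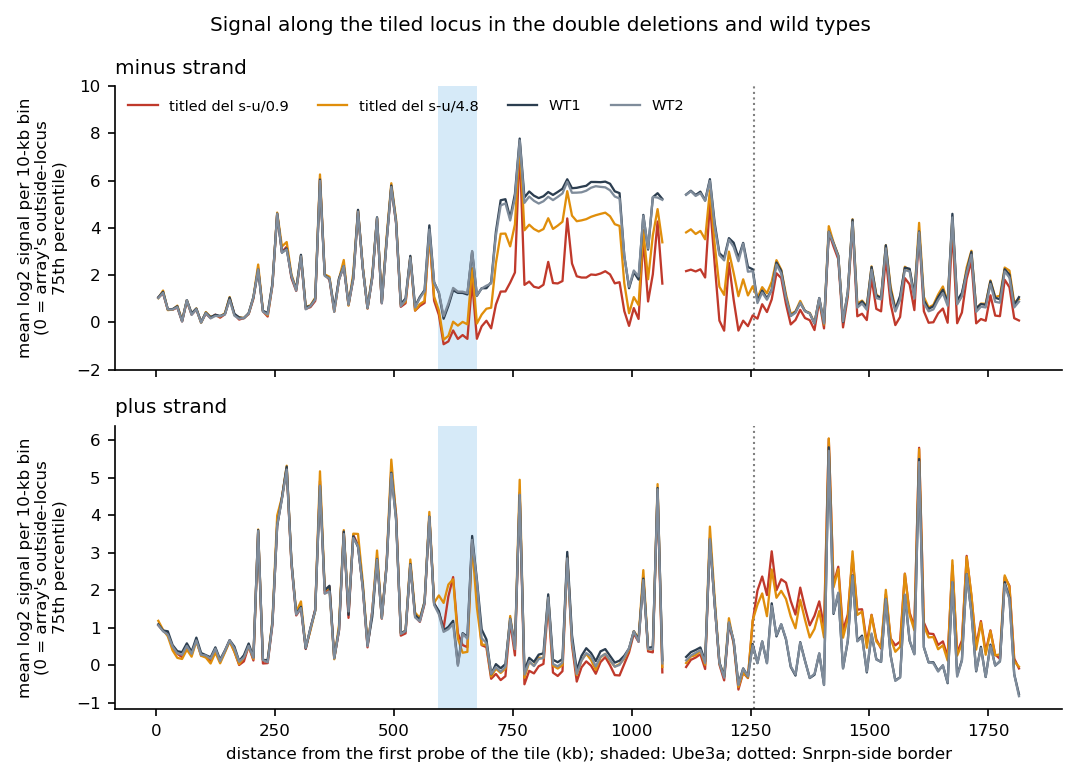
Mean log2 signal of 10-kb bins along the tile on the minus strand (top) and plus strand (bottom), 1 line per array, against the distance in kb from the first probe. 0 is the array's 75th percentile outside the tile, shading marks Ube3a, the dotted line the first base of the upper flank, and a gap is a span without tested probes. Between the shading and the dotted line on the minus strand, titled 0.9 runs lowest, titled 4.8 between, and the wild types highest. If all probes set the scale, the order of titled 0.9 and titled 4.8 turns next to and over the shading. It also turns in bins further up where the 2 lie close, such as 66650001 to 66660000.

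Stretch 4, the second strong block of the antisense transcript and nearer to Snrpn, showed the same order. Its level was 2.58 in titled 0.9, 4.01 in titled 4.8, 5.44 in WT1 and 5.40 in WT2. The double deletions differed by -1.43 log2 (2.69-fold; limma adjusted p = 4.04e-14), and the wild types by 0.04. On the scale of all probes described below this difference was -0.74 and was still called. Some wild-type probes of this stretch were saturated (3.974% in WT1 and 3.217% in WT2, but 0.2838% in titled 0.9 and 0.6623% in titled 4.8), which bounds how far the wild types are seen to exceed the double deletions.

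Near Snrpn, stretches 5 and 6 had a weaker wild-type signal and a difference that remained above 2-fold. In stretch 6, which ends just below the Snrpn-side border, levels were 0.01 in titled 0.9, 1.45 in titled 4.8, 2.68 in WT1 and 2.57 in WT2. Stretch 5 stood at 0.70, 1.90, 3.19 and 3.06 in the same order of arrays. Titled 0.9 was below titled 4.8 by 1.44 log2 in stretch 6, a 2.71-fold lower level, and by 1.20 log2 in stretch 5, a 2.30-fold lower level, whereas the wild types differed by 0.10 and 0.12. Both differences were called (limma adjusted p = 4.04e-14 and 1.06e-12). Their size depends on the background method: with plain background subtraction they were -2.44 and -2.02.

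Stretches 1 and 3 had smaller gaps on the log scale. Stretch 3, between the strong blocks, had 0.81 in titled 0.9, 1.50 in titled 4.8, 2.57 in WT1 and 2.62 in WT2. In stretch 1, next to Ube3a, the levels were -0.13, 0.50, 1.53 and 1.54. The differences of -0.69 and -0.63 log2 (limma adjusted p = 3.08e-08 and 1.25e-07) exceeded those between the wild types, at -0.05 and -0.01, but on the all-probe scale that of stretch 3 was no longer called and that of stretch 1 turned to 0.06. With plain background subtraction the differences were -1.39 in stretch 3 and -1.55 in stretch 1, near the -1.61 of stretch 4. Their smaller size thus depends on the background method.

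Opposite Ube3a, where the minus-strand RNA is Ube3a-ATS itself, both double deletions were more than 1 log2 below wild type (on the scale of all probes, titled 0.9 was at -0.68 from wild type at the 5′ part and -0.98 at the 3′ part), and the gap between them was smaller at the 5′ than at the 3′ part. Opposite the 3′ part of Ube3a, the level was -0.17 in titled 0.9, 0.45 in titled 4.8, 1.61 in WT1 and 1.66 in WT2. Opposite the 5′ part it was -0.62, -0.33, 0.83 and 0.91. The difference of titled 0.9 from titled 4.8 was -0.62 at the 3′ part and -0.30 at the 5′ part, but 0.07 and 0.39 on the all-probe scale described below. The wild types differed there by -0.05 and -0.08. Both were called (limma adjusted p = 1.66e-07 and 0.00185). Background subtraction gave larger differences, -1.56 and -1.02. The antisense signal opposite the 5′ part was near background in titled 0.9, where 76.76% of the probes were well above background, against 87.57% in titled 4.8 and 99.86% in each wild type.

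**Figure D2:**
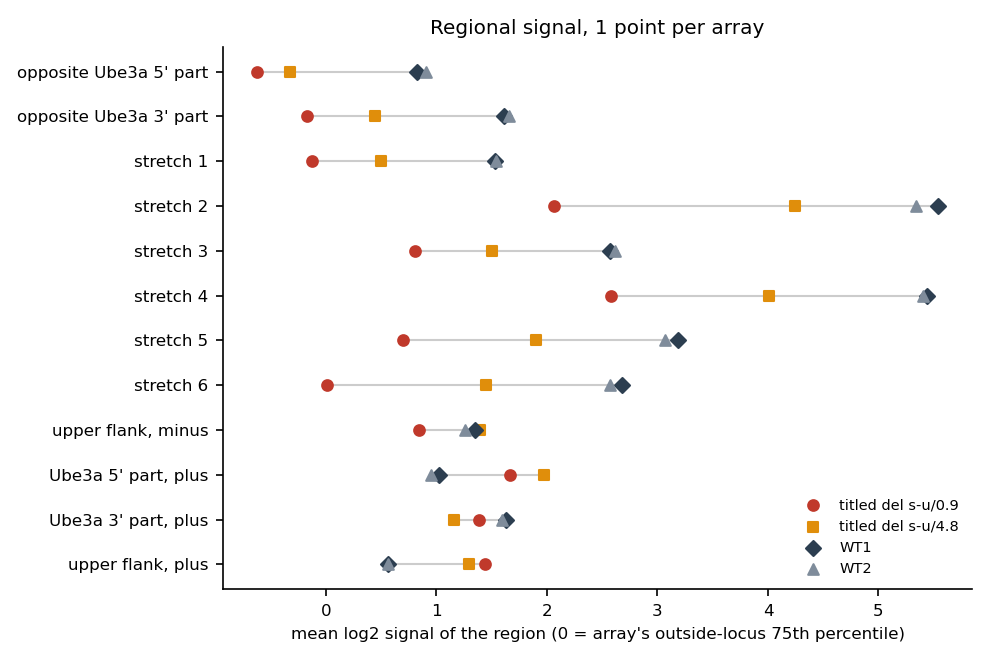
Mean log2 signal of 12 regions, 1 point per array, with a grey line from the lowest to the highest array. In all 8 regions of the minus strand up to stretch 6 titled 0.9 is the lowest point, titled 4.8 the next and the wild types lie close together on the right; with every array scaled on all its probes, the order of titled 0.9 and titled 4.8 turns opposite both Ube3a parts, in stretch 1, in the minus upper flank and in the Ube3a 5′ part of the plus strand.

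These smaller differences depended on how the arrays were put on 1 scale. Scaling on the 75th percentile of all probes, most of which lie in the tile, raised the median difference between titled 0.9 and titled 4.8 over the locus by 0.69 log2, and quantile normalization raised it by 0.22. On the all-probe scale the sign turned to 0.39 opposite the Ube3a 5′ part (adjusted p = 4.87e-05), 0.07 opposite the 3′ part, 0.06 in stretch 1 and 0.13 in the minus upper flank, and stretch 3 was at -0.00452 and no longer called. Quantile normalization left -0.08 opposite the 5′ part, which was not called (limma adjusted p = 0.491). Stretches 2, 4, 5 and 6 kept direction and call on every scale. A check inside the tile was available in its lower flank, below Ube3a: there titled 0.9 and titled 4.8 differed by -0.03 (plus strand) and -0.06 (minus strand) on the outside scale, and by 0.66 and 0.63 on the all-probe scale. With the median of that flank as the scale, an alternative added after these values were seen, the differences opposite the 5′ and 3′ parts were -0.32 and -0.64, both called.

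Of the 22 regions of both strands, 11 (50%) differed between the double deletions at an adjusted p under 0.05. On the minus strand 9 of 11 were lower in titled 0.9, and none was higher. The lower flank and the transition next to Ube3a were not called, at differences of -0.06 and -0.09. On the plus strand 1 region was lower, 1 higher and 9 were not called. Limma pooled the spread of all regions into 1 standard error, which rests on a single pair of arrays, so a p-value here measures only how far a difference stood from the spread of that pair. By size alone, 20 of 22 regions differed more between the double deletions than between the wild types, and the largest wild-type difference of any region was 0.20.

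On a linear scale the median probe kept a different share of the wild-type signal in the 2 samples. Here and below, that share is an array's median over the probes, divided by the mean of the wild-type medians. The middle probe need not be the same on each array. After background subtraction, the median probe on the minus strand kept, in the 8 regions that lead from Ube3a to stretch 6, 4.95% to 9.87% of the wild-type mean in titled 0.9 and 16.8% to 37.2% in titled 4.8. In stretch 2 these shares were 5.69% and 37.2%, while WT1 stood at 106.3% and WT2 at 93.7%. Opposite the Ube3a 3′ part titled 0.9 kept 5.94% and titled 4.8 21.9%. Opposite the 5′ part the shares were 7.02% and 16.8%. A mean over probes, which was the planned measure and gives bright probes more weight, came to 23.4% and 49.9% in stretch 2 and 71.7% and 89.9% opposite the 3′ part.

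**Figure D3:**
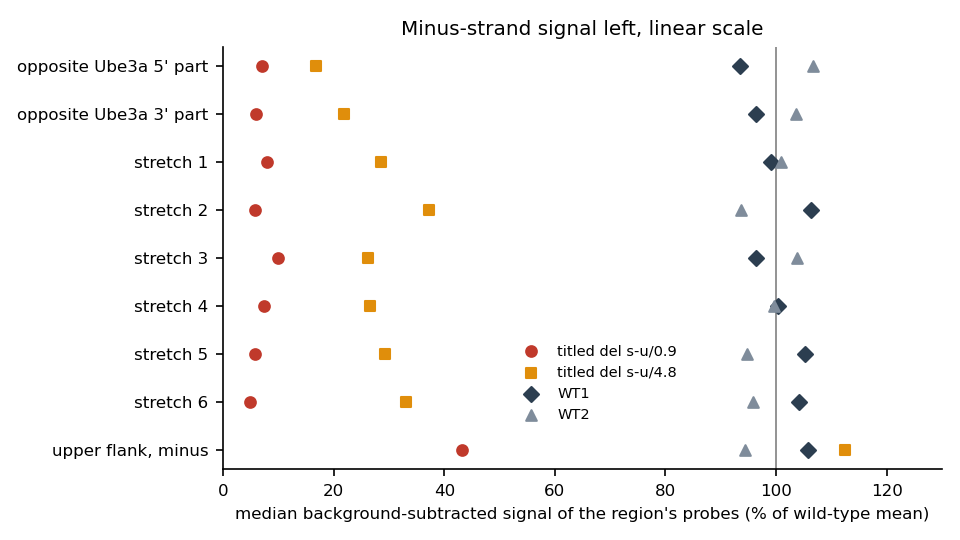
Median background-subtracted signal of a region's minus-strand probes, in percent of the wild-type mean, 1 point per array and with the line at 100%. The red points of titled 0.9 lie between 4.95% and 9.87% from the Ube3a 5′ part to stretch 6 and at 43.2% in the upper flank, and titled 4.8 lies between 16.8% and 37.2%, then at 112.4%. By the mean over probes, not drawn, the samples stand at 65.97% and 68.25% opposite the Ube3a 5′ part.

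Counted in 10-kb bins over both strands, 132 of 356 (37.1%) differed between the double deletions (limma, adjusted p under 0.05). Of these, 117 (32.9%) were lower in titled 0.9 and 15 (4.21%) higher, so that 11.36% of calls were higher. Higher calls made up 84.95% on the all-probe scale and 67.12% after quantile normalization. Past 2-fold, 41 bins (11.5%) were lower and 0 (0%) higher, and 0 of 356 (0%) bins differed 2-fold between the wild types, whose largest difference in any bin was 0.28. The count past 2-fold lower was 89 with background subtraction and 27 on the all-probe scale. At an unadjusted p under 0.05 there were 165 bins.

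All 41 bins past 2-fold lay on the minus strand between Ube3a and Snrpn. That span (66480001 to 67150000) has 63 bins with enough probes, of which 58 were called, and the difference ran from -2.53 to -0.19 with a median of -1.59. In 22 bins it was below -2. On the outside scale, every one of the 63 bins was below both wild types in both double deletions. Per bin, the median probe kept a median of 6.16% of wild type in titled 0.9 (3.57% to 90.2%) and 35.0% in titled 4.8 (12.4% to 94.1%), and titled 4.8 kept more in all 63.

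By the difference in log2 level, the 5 bins with the widest gap all lay in stretch 2. The bin 66810001 to 66820000 had levels of 2.00 in titled 0.9, 4.53 in titled 4.8, 5.94 in WT1 and 5.76 in WT2. Its difference of -2.53 is a 5.77-fold lower level in titled 0.9 (limma adjusted p = 0.0107). Bins starting at 66820001, 66740001, 66850001 and 66830001 followed, with 5.57-fold to 5.75-fold lower levels. None of the probes in these 5 bins was saturated. All 22 bins of the span with a difference below -2 lay in stretch 2, whose remaining bins ran from -1.85 to -0.19. In percent of wild type, the median probe at 66810001 kept 5.08% in titled 0.9 and 36.5% in titled 4.8. At 67140001, a bin that crosses the Snrpn-side border, the median probe kept 4.99% and 58.2%, which is a wider gap. Where the gap is widest thus depends on the measure.

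Several bins inside the span differed less, and those named here are not all of them. The bin 66910001 to 66920000, at -0.37, was another. At 66650001 to 66660000 the level was 7.44 in titled 0.9, 7.63 in titled 4.8, 7.78 in WT1 and 7.70 in WT2. This is the brightest bin of the span, and 20.9% of its probes were saturated in titled 0.9, 18.7% in titled 4.8, 8.79% in WT1 and 5.49% in WT2. Its difference of -0.19 was not called, and saturated probes have only a lower bound. The bin 67050001 to 67060000 was similar in shape, with 5.07, 5.58, 6.06 and 5.98, and its median probe kept 90.2% of wild type in titled 0.9 and 94.1% in titled 4.8. At 66940001 to 66950000 the levels were 4.27, 4.79, 5.46 and 5.28 and the call was missed (limma adjusted p = 0.0728). The remaining bins that were not called were the 3 nearest the Ube3a 5′ end, with differences of -0.19 to -0.23.

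**Figure D4:**
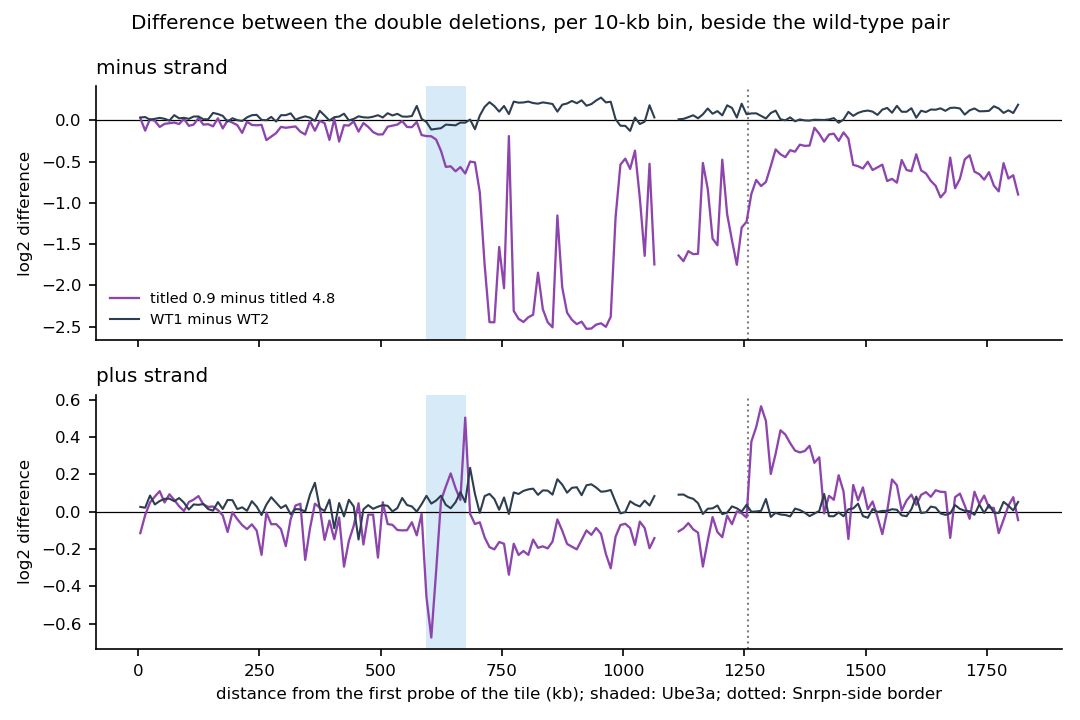
Log2 difference per 10-kb bin of titled 0.9 minus titled 4.8 (purple) and of WT1 minus WT2 (dark), for the minus strand (top) and the plus strand (bottom), on vertical scales of their own. The minus strand drops to -2.53 between the shaded Ube3a and the dotted border while the wild-type pair stays within 0.28, and the plus strand dips to -0.68 at the Ube3a 5′ end and reaches 0.56 above the border; on the scale of all probes every difference of the double deletions sits about 0.69 higher, so that small negative values there turn positive.

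On the plus strand, which holds the Ube3a sense RNA, the 2 double deletions differed in opposite ways at the 2 ends of the gene. Over the 5′ part the level was 1.67 in titled 0.9, 1.98 in titled 4.8, 1.02 in WT1 and 0.95 in WT2. Both double deletions were above both wild types, and titled 0.9 was lower than titled 4.8 by 0.31 log2 (limma adjusted p = 0.00139; wild types 0.07), a sign that turned to 0.38 on the all-probe scale and 0.22 after quantile normalization. Over the 3′ part the level was 1.39 in titled 0.9, 1.16 in titled 4.8, 1.63 in WT1 and 1.60 in WT2. Here both double deletions were below both wild types and titled 0.9 was the higher by 0.23 (limma adjusted p = 0.0118; wild types 0.03), a call that the authors' deposited matrix did not give (0.19, limma adjusted p = 0.0706). On the all-probe scale and after quantile normalization titled 0.9 lay above the wild types over the 3′ part, by 0.59 and 0.20. The maternal deletion, which both double deletions share, may take in part of Ube3a, as its border there is not given. How far it sets the distance of either part from wild type was not tested.

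Bin by bin, the sense-strand difference changed sign along Ube3a on the outside scale, whereas the shift of 0.69 on the all-probe scale is larger than each of the negative values. The first bins were lower in titled 0.9, by 0.46 at 66480001, 0.68 at 66490001 and 0.32 at 66500001, and all 3 were called. From 66510001 to 66560000 the differences ran from 0.06 to 0.20 and none was called. The last bin, 66560001 to 66570000, was higher by 0.50 and was called (limma adjusted p = 0.0202). At 66490001 the level was 0.99 in titled 0.9, 1.66 in titled 4.8, 0.93 in WT1 and 0.89 in WT2, so titled 0.9 lay close to the wild types and titled 4.8 above them. At 66560001 the levels were 2.04, 1.54, 2.28 and 2.23, so both double deletions were below wild type and titled 4.8 was the lower. The median probe kept 80.7% of wild type in titled 0.9 and 55.3% in titled 4.8 there. The sum of sense RNA over exons could not be formed, as the files do not mark exons.

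Above Snrpn, in the upper flank, the minus and plus strands separated the samples differently. Minus-strand levels were 0.84 in titled 0.9, 1.40 in titled 4.8, 1.35 in WT1 and 1.26 in WT2. Titled 4.8 lay next to the wild types, 0.09 above their mean (limma adjusted p = 0.282), and between -0.03 and 0.22 from it over the other settings, of which the median of outside probes, all probes, quantile normalization and the authors' deposited matrix called it higher. Titled 0.9 was 0.47 log2 below the wild types and 0.56 log2 below titled 4.8 (limma adjusted p = 7.24e-07), but 0.35 above the wild types and 0.13 above titled 4.8 on the all-probe scale. On the outside scale titled 0.9 was under both wild types in 56 of 56 bins, whereas titled 4.8 exceeded both in 41. The median probe kept 43.2% of wild type in titled 0.9 and 112.4% in titled 4.8, and the mean over probes gave 89.7% and 98.5%. Over the 56 bins, on the outside scale, the gap ran from -0.93 to -0.09 with a median of -0.58. It persisted to the end of the tile, at -0.74 over 67150001 to 67200000, -0.20 over 67300001 to 67350000 and -0.71 over 67650001 to 67700000.

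Plus-strand RNA of the upper flank was above wild type in both double deletions. Levels were 1.44 in titled 0.9, 1.29 in titled 4.8, 0.57 in WT1 and 0.56 in WT2, and in all 56 bins both double deletions exceeded both wild types. Of the tested probes, 99.89% were well above background in titled 0.9 and 99.2% in titled 4.8, but 66.25% in WT1 and 65.13% in WT2. Some probes thus entered only through the double deletions, where they are high, which favours this direction. With only probes well above background on all arrays, titled 0.9 was 0.73 above wild type, against 0.87 with all tested probes. Over the whole flank the double deletions did not differ by the test (0.14, limma adjusted p = 0.125), although they did on the all-probe scale (0.83), after quantile normalization (0.50) and with the scale on bright outside probes (0.21). The first 150 kb was different, with titled 0.9 the higher on the outside scale. The difference was 0.42 over 67150001 to 67200000, 0.37 over 67200001 to 67250000 and 0.31 over 67250001 to 67300000, then at most 0.10 in each later 50-kb window. The widest was in the bin 67170001 to 67180000, at 1.87 in titled 0.9, 1.31 in titled 4.8, 0.06 in WT1 and 0.05 in WT2. Its neighbour from 67180001 had 3.04, 2.55, 1.65 and 1.58.

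Both strands changed course at the Snrpn-side border within a few kb. In 2-kb bins the plus strand of both double deletions stayed between -0.23 and 0.08 from the wild-type mean up to 67146000. From 67146001 to 67148000 both were at 0.14, against -0.30 in WT1 and -0.33 in WT2. From 67148001 to 67150000 it was 2.04 in titled 0.9, 2.06 in titled 4.8, 0.26 in WT1 and 0.25 in WT2, so on the outside scale the double deletions rose together there with no gap between them. The gap opened further up, to 0.54 at 67158001 (1.54 in titled 0.9 and -0.70 in both wild types). The minus strand held a gap on both sides of the border: titled 0.9 was lower than titled 4.8 in all 19 bins, by 0.53 to 1.78. Both double deletions came nearer to the wild types across the border. From the wild-type mean, titled 0.9 was at -2.40 at 67146001 and -0.81 at 67152001, and titled 4.8 at -0.66 and 0.18. At 67146001 titled 4.8 stood at 1.03 against 1.70 and 1.68 in the wild types. At 67148001, the first bin above the border, it was still below them at 2.05 against 2.77 and 2.64. At 67152001 it stood at 1.07 against 0.91 and 0.88. Titled 0.9 was at -0.71, 0.90 and 0.08 in those bins. These 2-kb values hold 17 to 48 probes each, are on the outside scale and were not tested. The shift of 0.69 on the all-probe scale would put titled 0.9 above titled 4.8 on the plus strand at 67148001. It is also larger than the smallest minus-strand gaps.

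**Figure D5:**
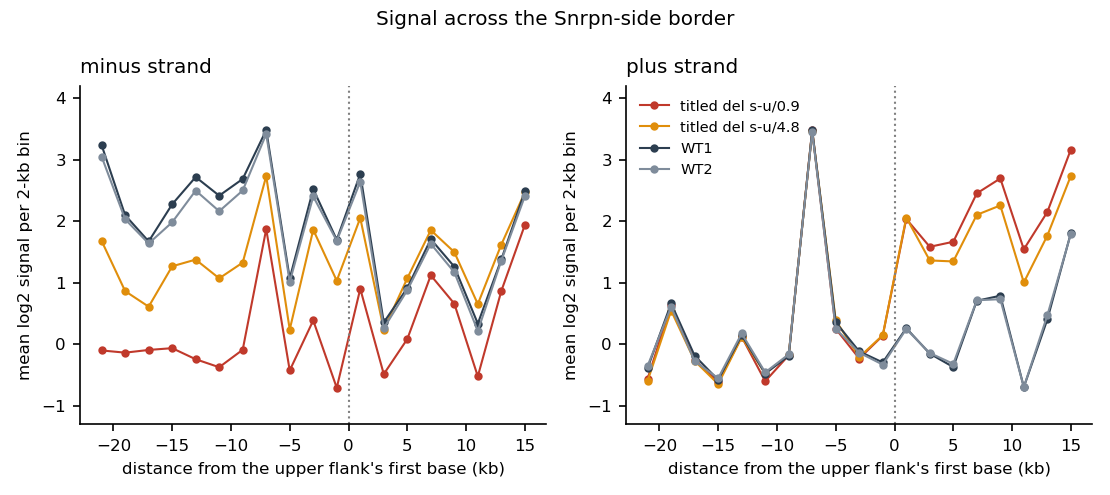
Mean log2 signal of 2-kb bins across the Snrpn-side border on the minus (left) and plus (right) strand, 1 line per array, against the distance in kb from the first base of the upper flank (dotted). On the plus strand both double deletions are above the wild types from the last 2-kb bin below the border, at 0.14 and 0.14, and reach 2.04 and 2.06 in the first bin above it. On the minus strand titled 4.8 is still below the wild types in the first bin above the border and near or above them further up. Titled 0.9 stays below all other arrays on the outside scale drawn here. On the all-probe scale it lies 0.35 above wild type over the whole minus upper flank.

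Probes outside the tile show how far the 2 arrays differed elsewhere. The SD of the probe difference over 2278 tested probes was 0.343 between the double deletions and 0.234 between the wild types, and the median difference was -0.02. Past 2-fold were 37 of these probes (1.62%), 22 lower and 15 higher in titled 0.9, against 13 (0.571%) between the wild types. Outside the tile the double deletions thus differed more than the wild types did. The tests assume that each lone sample varies like the wild types, so their p-values may be too small. In the tile, 6251 of 46740 tested probes (13.4%) were at least 2-fold lower in titled 0.9.

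Of the 1808 outside probes well above background on all 4 arrays, the 5 with the widest gap came from 4 chromosomes. The widest, on chromosome 8 (119035167 to 119035226, mm9, plus strand), was at 3.58 in titled 0.9, 0.17 in titled 4.8, 3.44 in WT1 and 0.65 in WT2, so it split the wild types as it split the double deletions. Next came probes on chromosome 6 at 125110329 to 125110373 (1.99 in titled 0.9, 4.66 in titled 4.8, 3.28 in WT1 and 2.78 in WT2) and at 125116637 to 125116681 (0.52, 2.72, 3.78 and 3.45). A probe on chromosome 16 at 32622970 to 32623027 had 2.15, 4.34, 3.20 and 2.62. The fifth, on chromosome 7 at 69494333 to 69494392, had 4.80, 6.65, 6.12 and 5.58. The files name no gene for any of the 5.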

How the data were processed

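RNA was read as Cy5-labelled first-strand cDNA (red channel), per the labels' protocols, so each strand has its own probes. The deposited files hold linear intensity values per spot, not normalized between arrays, made by the authors with Agilent Feature Extraction 10.7.3.1 per the file headers (10.9 per the submitters' processing notes). The median red intensity (the column the labels point to) was background-corrected (normexp, offset 50, limma 3.58.1, R 4.3.3), put on the log2 scale, cleared of control and outlier spots, averaged by probe (57933 spots, 53834 probes) and scaled on the array's 75th percentile of the 3338 probes over 100 kb outside the tile. Probe strand came from coordinate order. A probe entered the tests if some group had it well above background on all its arrays (49053 did). Region and 10-kb bin means (3 or more probes) were fitted with limma on 4 arrays, two-sided, with Benjamini-Hochberg adjustment over all regions or all bins and a threshold of 0.05. The residual degree of freedom is 1. For regions limma's prior degrees of freedom were infinite, so every region had the same standard error. The scripts were tested on simulated data. All 8 arrays share 1 slide and 1 scan, so no batch could be fitted. The number of arrays limits the precision.

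Regions, lists and the comparison itself were chosen with earlier results of these data known. The rule for named items took all regions, the 5 bins of each strand and the 5 outside probes with the largest difference. Its gene and cell type marker parts, and probe sequences, could not be used, since the files name no genes and hold no sequences. The authors' deposited matrix (intensity of 18408 features, all in the tile, each array multiplied by 1 factor of 0.859 to 1.02; column medians 76.9, 105.8, 89 and 86.0 for titled 0.9, titled 4.8, WT1 and WT2) served as an alternative on its own scale, as it holds no outside probe. The sources used here do not say how its factors were set.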

Additional observations from a re-analysis of the deposited data

Results flagged for a closer look

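The 11 regions listed here differed between the double deletions by a test of the difference itself (limma, titled 0.9 minus titled 4.8, log2). On the minus strand the values were -0.30 opposite the Ube3a 5′ part, -0.62 opposite the 3′ part, -0.63 in stretch 1, -2.18 in stretch 2, -0.69 in stretch 3, -1.43 in stretch 4, -1.20 in stretch 5, -1.44 in stretch 6 and -0.56 in the upper flank. On the plus strand they were -0.31 in the Ube3a 5′ part and 0.23 in the 3′ part. Title and genotype label name opposite alleles, so the direction belongs to the titles alone. The cause of these differences was not tested.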

How the results depend on the processing

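The differences of titled 0.9 minus titled 4.8 on the minus strand in stretch 2 (-2.39 to -1.42) and stretch 4 (-1.75 to -0.74) kept their direction and call under all 11 settings. With the scale on all probes the value was 0.39 opposite the Ube3a 5′ part, 0.0726 opposite the 3′ part, 0.0565 in stretch 1, 0.13 in the minus upper flank, 0.38 in the plus Ube3a 5′ part and 0.83 in the plus upper flank; titled 0.9 minus wild type was 0.35 in the minus upper flank and 0.59 in the plus Ube3a 3′ part, and 48 bins were lower, 271 higher and 27 past 2-fold lower. Quantile normalization gave -0.0769 opposite the Ube3a 5′ part, 0.22 in the plus 5′ part, 0.50 in the plus upper flank, 0.20 for titled 0.9 minus wild type in the plus 3′ part, and 198 higher bins. The scale on bright outside probes gave 0.21 in the plus upper flank, -0.0284 for titled 4.8 minus wild type in the minus upper flank, and 26 higher bins. The authors' matrix gave 0.19 in the plus 3′ part. Background subtraction gave 23 higher bins and 89 past 2-fold. The lower-flank scale, added after seeing the data, gave 178 lower bins. Bins of 5 kb gave 239 lower, 31 higher and 80 past 2-fold, and bins of 20 kb gave 62, 9 and 23. The changes with bin width follow from the number of bins; the cause of the others was not tested beyond the shifts given with the results. Leaving out saturated probes, also added after seeing the data, changed no call. The mean red intensity, planned as an alternative, was not run because the column is not in the files used. Without WT replicate 1 or 2 no test remains, and the difference between the double deletions does not involve the wild types. No paired analysis was possible because the double deletions carry no replicate numbers. Dim signal limits the regions opposite Ube3a, and saturation the brightest bins.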
